A study of Homo sapiens with 2 samples.

Results

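The genes described here are 9 that receive a Hedgehog signal or carry it to the nucleus: the receptor PTCH1, the membrane protein SMO that PTCH1 holds inactive, the ligand-binding protein HHIP, the co-receptors BOC, CDON and GAS1, and the transcription factors GLI1, GLI2 and GLI3. They were found by their symbols in the gene lists of both libraries, where they are 9 of 61487 genes. All 9 had UMIs (unique molecular identifiers, each standing for 1 captured RNA molecule) in each library. As background, a Hedgehog ligand such as SHH binds PTCH1 and so frees SMO, which acts through the primary cilium on GLI2 and GLI3. GLI1, PTCH1 and HHIP are themselves transcribed when the pathway is active, and PTCH1 and HHIP then hold the signal back. In the ventral hindbrain, SHH from the notochord and floor plate patterns the progenitors that give rise to serotonin neurons.

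Serotonin neurons were made from the human embryonic stem cell line WA09 with purmorphamine, a SMO agonist that was withdrawn at the progenitor stage and whose dose for these cultures is not given in the sources used. Other day 42 cultures of the study had a lower dose for wild-type than for knockout cells, so the dose may have differed between the libraries. Cells of both groups carried a TPH2-EGFP knockin. Sorting for EGFP took place at day 42, and the sorted cells were profiled with 10x Genomics 3′ single-cell chemistry. The wild-type group gave the library labelled WT. The knockout group came from FKO2, a single CRISPR line with a frameshifting indel in FOXA2, and gave the library labelled FKO. With 1 library per condition no difference between them was tested, and genotype, line, purmorphamine dose, culture, sort and library cannot be told apart. Every interval printed is an exact 95% interval that covers counting error only.

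There were 11052 barcodes labelled WT, with 123064653 UMIs and a median depth of 10959.5, and 8806 labelled FKO, with 70588747 UMIs and a median depth of 6669.5. The libraries shared 21 barcodes. Once shallow barcodes, those high in mitochondrial UMIs and likely doublets had been removed, 5721 cells labelled WT and 6980 labelled FKO were kept, with medians of 12442 and 6925.5 UMIs and mitochondrial shares of 7.84% and 5.32%. The mitochondrial limit removed 39.8% of the cells that had passed the earlier limits for WT and 11.8% for FKO. FOXA2, the targeted gene, goes against the label: pooled over kept cells, it stood at 4.11 CPM (UMIs of the gene per 1000000 UMIs of all genes) from 312 UMIs where the label is WT, and at 22.3 CPM from 1295 UMIs where the label is FKO. A transcript with an indel can still be counted, so whether the labels are right cannot be told from this gene, and leaving out either library leaves no comparison between them. Results within a library do not rest on that label.

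Cells were sorted into classes by marker genes, in a fixed order. Cycling cells held UMIs for at least 3 of 10 cycling genes, floor plate-like cells for at least 2 of 5 floor plate genes, and cells of the collagen-gene class for at least 3 of 6 mesenchymal genes. All others were called FEV-positive neurons or FEV-negative cells by at least 1 UMI, or none, of FEV, a transcription factor of serotonin neurons. In the library labelled WT these classes held 63, 89, 4, 5473 and 92 cells, and in the library labelled FKO 103, 170, 78, 6129 and 500. Median depths differed between classes: they were 12431 UMIs in FEV-positive, 5860 in FEV-negative, 21319 in cycling and 15953 in floor plate-like cells labelled WT, and 6926, 5022.5, 12773 and 8850.5 labelled FKO, with 8746 in the collagen-gene class. A class holds cells that pass its gate, and its cells need not be alike. Floor plate-like cells labelled WT had the mesenchymal genes at a summed 923 CPM, led by LUM, against 161 CPM labelled FKO, while the neuronal gene STMN2 was at 728 CPM labelled WT and 3525 CPM labelled FKO. The cycling class had COL1A1 at 4.54 CPM labelled WT and 276 CPM labelled FKO, and STMN2 at 620 and 2611 CPM.

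Over all kept cells every gene of the 6 marker lists had UMIs in both libraries. The 9 serotonergic genes summed to 2924 CPM labelled WT and 2468 CPM labelled FKO, led by FEV, and the 6 neuronal genes to 7689 and 11148 CPM, led by STMN2. The 6 progenitor genes, led by SOX2, summed to 204 and 175 CPM. The 10 cycling genes, led by CENPF, summed to 76.1 and 95.8 CPM. The 5 floor plate genes summed to 16.4 CPM labelled WT, led by SHH, and 35.3 CPM labelled FKO, led by FOXA2. The 6 mesenchymal genes summed to 38.6 CPM labelled WT, led by LUM, and 231 CPM labelled FKO, led by COL1A2. The part that these other cells play in the differences between libraries was not tested.

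Among the Hedgehog genes, PTCH1 was present across neurons, while GLI1, GLI3, BOC and HHIP had most of their UMIs in the other classes in both libraries. PTCH1 had 1217 of its 1327 UMIs in FEV-positive neurons labelled WT (91.7%) and 1656 of 2048 labelled FKO (80.9%), slightly under the 95.3% and 87.0% of all UMIs that these neurons held. For GLI1 that share was 30.0% of 10 UMIs and 7.69% of 26 UMIs, and for BOC 43.5% of 69 and 23.6% of 225. HHIP had 63.2% of its UMIs labelled WT in the cycling class, which held 1.74% of all UMIs. In the library labelled FKO the collagen-gene class held 1.60% of all UMIs but 47.1% of those of BOC and 31.7% of those of HHIP.

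**Figure D1:**
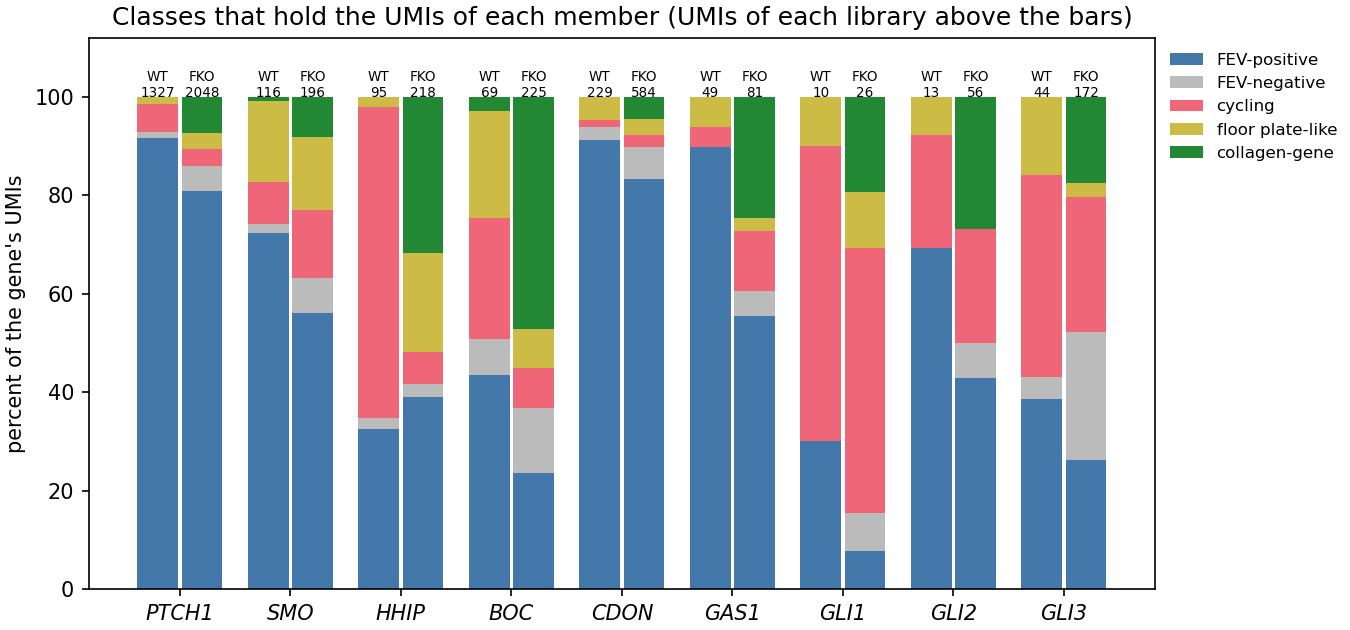
Percent of each gene's UMIs (vertical axis) that lie in each class of cells, for the library labelled WT (left bar of each pair) and labelled FKO (right bar), with the gene's UMIs above the bar. PTCH1 and CDON are mostly in FEV-positive neurons in both libraries, with 91.7% and 91.3% of their UMIs labelled WT, whereas GLI1 has 60.0% of its 10 UMIs labelled WT and 53.8% of its 26 labelled FKO in the cycling class.

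PTCH1 (ENSG00000185920), the receptor that SHH binds, lies on chromosome 9 at 95442980 to 95517057, minus strand, in GRCh38 (positions here and below are those of GENCODE 29). In FEV-positive neurons it was at 16.8 CPM (15.9 to 17.8) labelled WT and 32.8 CPM (31.2 to 34.4) labelled FKO. It was thus higher in the neurons labelled FKO, with a log2 ratio (FKO over WT, as for all ratios between libraries) of 0.96 (0.85 to 1.07), just under 2-fold. The median ratio over all 21241 genes with at least 20 UMIs in these neurons was itself 0.64, and PTCH1 lay 0.32 above it. In FEV-negative cells PTCH1 was at 21.5 CPM (11.7 to 36) labelled WT and 37.2 CPM (30.5 to 45.0) labelled FKO, which overlaps the neurons of the same library. In cycling cells it was at 59.0 CPM (46.6 to 73.6) labelled WT, above the neurons, and at 42 CPM (32.7 to 53.0) labelled FKO, where the interval of the cycling-to-neuron log2 ratio of 0.36 reached from -0.01 to 0.70. Floor plate-like cells had 11.7 CPM (6.91 to 18.4) and 30.7 CPM (23.7 to 39.2). The highest level was in the collagen-gene class labelled FKO, at 164 CPM (139 to 192). The 4 cells of that class labelled WT had 0 UMIs, which allows up to 51.7 CPM.

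The order of the PTCH1 levels in the 4 classes found in both libraries was thus the same, from cycling through FEV-negative and FEV-positive to floor plate-like cells. Labelled WT the intervals of all but the cycling cells overlap, and labelled FKO those of all 4 overlap, so that only the cycling cells labelled WT and the collagen-gene class labelled FKO stand apart from the neurons.

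A sequence bears on PTCH1 as a target of the GLI factors, whose textbook motif is TGGGTGGTC (GACCACCCA on the other strand). Of the 9 genes, 7 matched entries in the RefSeq table of promoter windows (GRCh38.p14, each 250 bases before to 50 after a start site), with 15 windows among them. GLI1 and GLI3 had none. The motif was in 1 of the 15 windows, and in 83 of 35116 windows of the same length over all genes, or 0.236%. That window is chr9:95509217-95509516 on the minus strand of PTCH1, printed here because PTCH1 carries most of the UMIs of these genes, with the motif in capitals:

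PTCH1: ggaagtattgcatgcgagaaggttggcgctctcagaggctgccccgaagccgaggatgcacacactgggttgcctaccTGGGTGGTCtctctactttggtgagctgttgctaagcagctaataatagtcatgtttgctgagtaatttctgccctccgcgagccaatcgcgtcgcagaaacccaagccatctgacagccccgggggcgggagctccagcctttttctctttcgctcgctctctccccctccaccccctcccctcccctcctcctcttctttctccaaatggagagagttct

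HHIP: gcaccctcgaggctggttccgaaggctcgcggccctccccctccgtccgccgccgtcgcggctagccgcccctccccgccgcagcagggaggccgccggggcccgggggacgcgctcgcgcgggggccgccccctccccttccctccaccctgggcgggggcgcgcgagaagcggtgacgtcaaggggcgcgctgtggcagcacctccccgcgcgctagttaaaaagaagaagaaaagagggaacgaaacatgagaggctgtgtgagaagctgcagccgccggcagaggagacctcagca

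The motif ends 164 bases before the window's start site at 95509266, which lies 7791 bases inside the annotated start of the gene, and no annotated exon overlaps the window. The HHIP window (chr4:144645906-144646205, plus strand) is set beside it because HHIP is the other inhibitor that the pathway induces, and it does not hold these letters. A match describes the letters of a window and is not evidence of binding in these cells.

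Detection of PTCH1 depended on depth. It had a UMI in 18.9% of FEV-positive neurons labelled WT and 22.4% labelled FKO at their own depths. After each cell was thinned to 2000 UMIs, which left out 24 and 51 shallower neurons, the shares were 3.54% (3.07% to 4.07%) of 5449 and 6.68% (6.06% to 7.34%) of 6078. Genes that neurons should lack give a scale for such shares, though free RNA itself was not measured. COL1A1, a collagen gene, had a UMI in 0.0367% of thinned FEV-positive neurons labelled WT and 0.757% labelled FKO, and SHH in 0.0551% and 0.0494%. PTCH1 stood above both in each library. COL1A1 and SHH also count toward the gates that take cells out of the neurons. The class rule can thus lower their shares there, and the scale may be too low. In thinned cycling cells the PTCH1 shares were 13.1% (5.84% to 24.2%) of 61 and 7.92% (3.48% to 15.0%) of 101, and in thinned FEV-negative cells 5.33% (1.47% to 13.1%) of 75 and 8.22% (5.82% to 11.2%) of 438.

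SMO (ENSG00000128602; chromosome 7, 129188872 to 129213545, plus strand) encodes the protein on which purmorphamine acts. In FEV-positive neurons it was at 1.16 CPM (0.926 to 1.44) labelled WT and 2.18 CPM (1.79 to 2.62) labelled FKO. Its log2 ratio was 0.91 (0.48 to 1.33), which is 0.27 above the median gene. After thinning, SMO had a UMI in 0.220% of these neurons labelled WT and 0.444% labelled FKO, the latter under the 0.757% of COL1A1. It was higher in cycling cells, at 7.56 CPM (3.63 to 13.9) and 16.2 CPM (10.7 to 23.5), and in floor plate-like cells, at 12.3 CPM (7.41 to 19.2) and 13.9 CPM (9.32 to 20). These are log2 ratios over FEV-positive neurons of 2.70 and 2.89 for cycling cells and 3.41 and 2.68 for floor plate-like cells. FEV-negative cells had 2 UMIs labelled WT, 3.07 CPM (0.372 to 11.1), an interval that includes the neurons, and 4.91 CPM (2.69 to 8.24) labelled FKO. SMO was thus higher in cycling and floor plate-like cells than in neurons in each library. The collagen-gene class labelled FKO was also higher, at 17.2 CPM (9.85 to 28.0).

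HHIP (ENSG00000164161; chromosome 4, 144646021 to 144745271, plus strand) encodes a membrane protein that binds and sequesters Hedgehog ligands. Its level differed by class, and not in the same way in each library. In FEV-positive neurons it was at 0.429 CPM (0.291 to 0.608) labelled WT and 1.68 CPM (1.34 to 2.08) labelled FKO. The 31 UMIs labelled WT lay in 20 cells, with up to 6 in a cell. The 85 UMIs labelled FKO lay in 85 cells, at most 1 in each. In cycling cells it was at 45.4 CPM (34.6 to 58.4) labelled WT, from 60 UMIs in 13 of 63 cells with up to 10 in a cell, and at 8.39 CPM (4.59 to 14.1) labelled FKO, from 14 UMIs. In floor plate-like cells it had 2 UMIs labelled WT, or 1.30 CPM (0.157 to 4.68), and 44 UMIs labelled FKO, or 21.1 CPM (15.3 to 28.4), in 9 of 170 cells with up to 15 in a cell. The collagen-gene class labelled FKO had 74.3 CPM (57.8 to 94.0), from 69 UMIs in 18 of 78 cells. FEV-negative cells had 2 UMIs labelled WT and 6 labelled FKO.

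**Figure D2:**
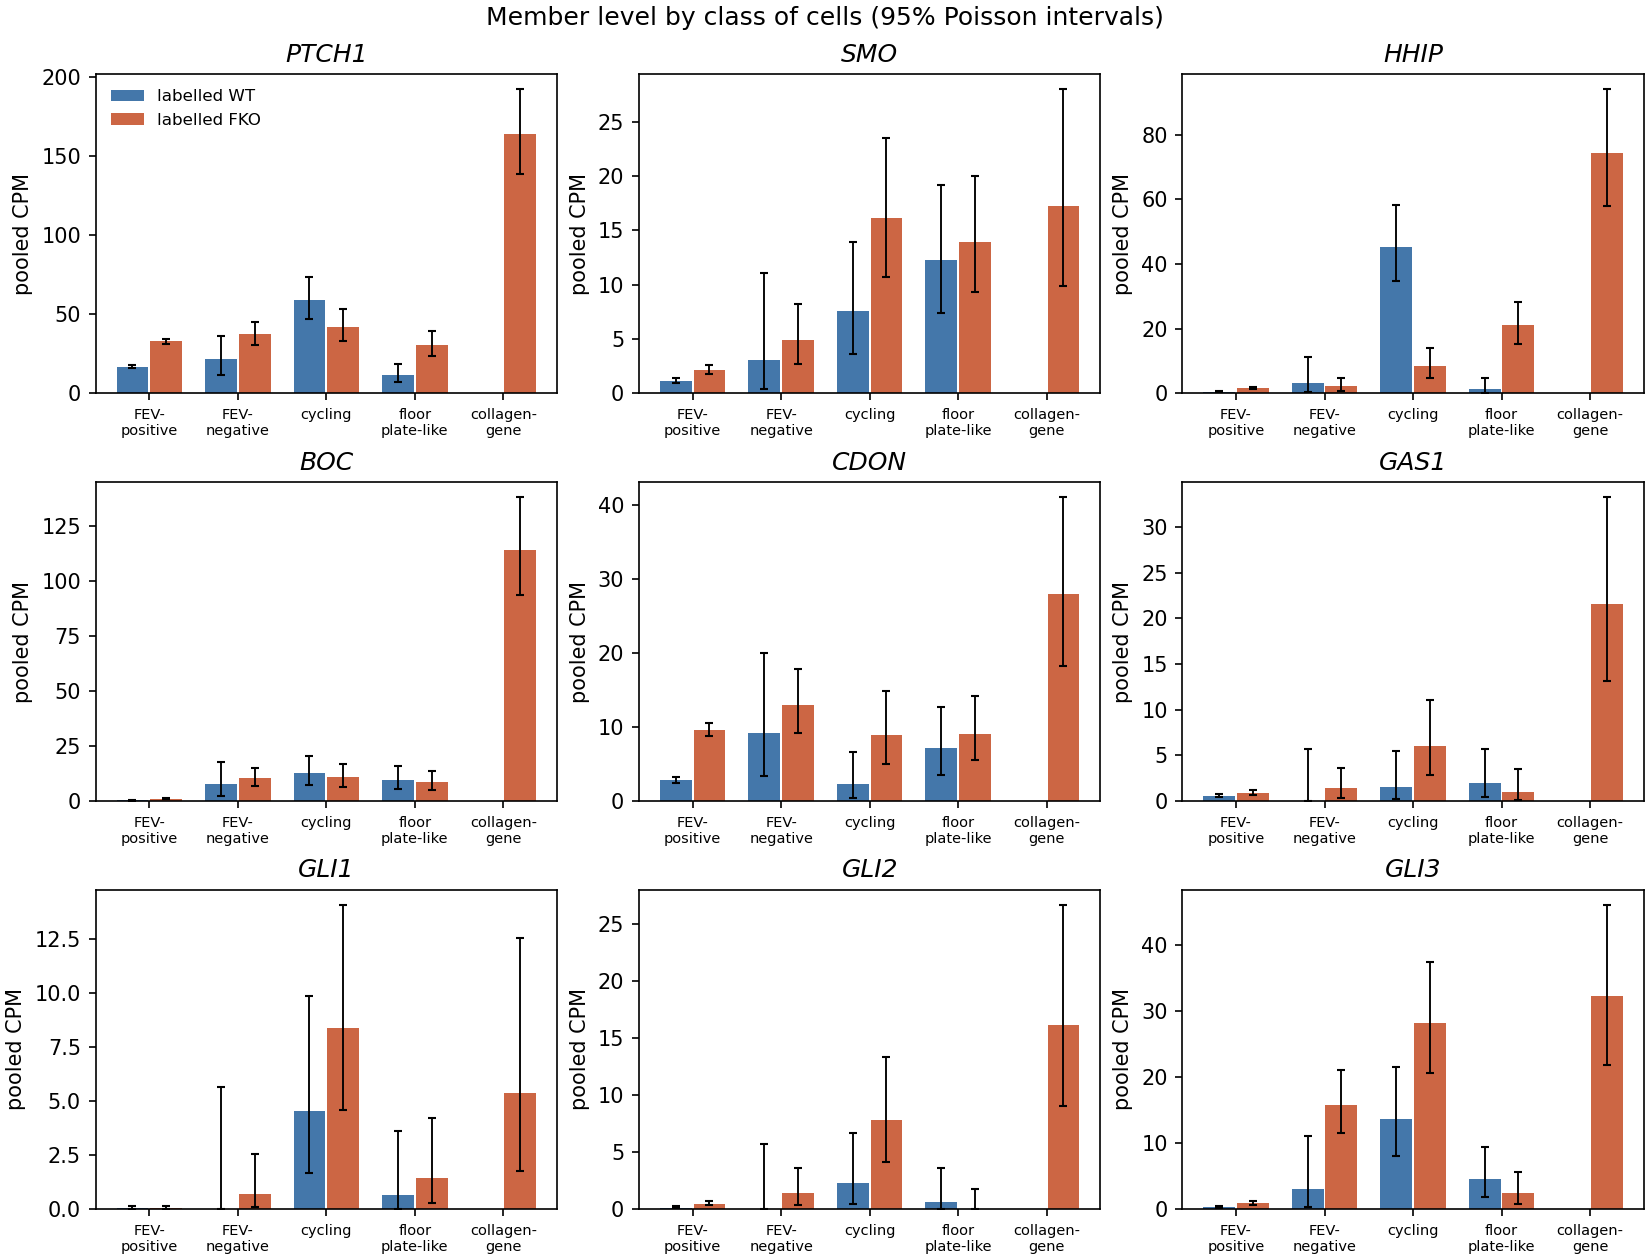
Pooled CPM of each gene (vertical axis, a separate scale in each panel) by class of cells, for the library labelled WT (blue) and labelled FKO (orange); whiskers are 95% Poisson intervals. The collagen-gene class is drawn for the library labelled FKO alone, since it held 4 cells labelled WT. PTCH1 stands at 16.8 and 32.8 CPM in FEV-positive neurons, while HHIP is at 45.4 CPM in cycling cells labelled WT and at 21.1 CPM in floor plate-like cells labelled FKO.

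The co-receptors bind ligand together with PTCH1, and they differed from each other in where they were found. CDON (ENSG00000064309; chromosome 11, 125955796 to 126063335, minus strand) was, like PTCH1, found across neurons, at 2.89 CPM (2.51 to 3.31) labelled WT and 9.64 CPM (8.80 to 10.5) labelled FKO. The log2 ratio was 1.74 (1.5 to 1.98), or 1.10 above the median gene of these neurons. After thinning, CDON had a UMI in 0.385% (0.239% to 0.589%) and 1.97% (1.64% to 2.36%) of FEV-positive neurons, against 3.67% and 7.34% unthinned. COL1A1, a gene whose share the gate can lower, was below it in each library, at 0.0367% and 0.757%. Cycling cells had 3 UMIs labelled WT, 2.27 CPM (0.468 to 6.63), and 8.99 CPM (5.03 to 14.8) labelled FKO, and both intervals include the level of the neurons. CDON was not confined to neurons. It was at 9.20 CPM (3.38 to 20) in FEV-negative and 7.13 CPM (3.56 to 12.8) in floor plate-like cells labelled WT, both above the neurons. The FEV-negative level rests on 6 UMIs in 5 cells. Its log2 ratio over the neurons was 1.56 (0.41 to 2.50) with a mitochondrial limit of 20%. At a mitochondrial share of 5% to 10% it was 0.96 (-1.33 to 2.52), from 3 UMIs. Labelled FKO, FEV-negative and floor plate-like cells had 13.0 CPM (9.14 to 17.9) and 9.12 CPM (5.49 to 14.2), which overlap the neurons. The collagen-gene class labelled FKO was higher, at 28.0 CPM (18.3 to 41.0).

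BOC (ENSG00000144857; chromosome 3, 113211003 to 113287459, plus strand) was low in neurons and higher in each other class. It was at 0.415 CPM (0.280 to 0.592) in FEV-positive neurons labelled WT and 1.05 CPM (0.786 to 1.37) labelled FKO. FEV-negative cells had 7.67 CPM (2.49 to 17.9) and 10.5 CPM (7.1 to 15.0), cycling cells 12.9 CPM (7.49 to 20.6) and 10.8 CPM (6.40 to 17.1), and floor plate-like cells 9.72 CPM (5.44 to 16.0) and 8.64 CPM (5.12 to 13.7). These 3 classes overlap in each library, and between libraries. The collagen-gene class labelled FKO reached 114 CPM (93.5 to 138), with a UMI in 41 of 78 cells. Among FEV-negative cells labelled FKO, the 75 with UMIs for at least 2 progenitor genes had BOC at 32.9 CPM (19.8 to 51.3) and the other 425 at 4.84 CPM (2.42 to 8.66).

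GAS1 (ENSG00000180447; chromosome 9, 86944363 to 86947189, minus strand), a membrane-anchored co-receptor, had 49 UMIs labelled WT and 81 labelled FKO over all kept cells. In FEV-positive neurons it was at 0.608 CPM (0.442 to 0.817) and 0.890 CPM (0.650 to 1.19). The log2 ratio was 0.55, with an interval of -0.08 to 1.18 that includes 0. Scaled to the median gene the ratio was -0.09. Unscaled, it was 0.72 (0.11 to 1.32) with a mitochondrial limit of 20% and 0.97 (0.27 to 1.66) at a share of 5% to 10%. Those intervals leave out 0, so this result depends on the mitochondrial limit. The collagen-gene class labelled FKO had 21.5 CPM (13.2 to 33.3), and cycling cells had 2 UMIs labelled WT and 10 labelled FKO, the latter 5.99 CPM (2.87 to 11).

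The GLI factors carry the signal to the genome. GLI1 (ENSG00000111087; chromosome 12, 57460135 to 57472262, plus strand) is the activator whose own transcription follows the signal, and it was nearly absent from FEV-positive neurons: 3 UMIs in 5473 cells labelled WT and 2 UMIs in 6129 labelled FKO, or 0.0415 and 0.0396 CPM. No fold between the libraries is given for these counts. Cycling cells had 6 UMIs labelled WT, 4.54 CPM (1.67 to 9.88), and 14 labelled FKO, 8.39 CPM (4.59 to 14.1). The log2 ratio of cycling cells over neurons was 6.77 (4.55 to 9.40) labelled WT and 7.73 (5.61 to 10.9) labelled FKO, each resting on the same 3 and 2 neuronal UMIs. Of the 9 cells with a GLI1 UMI labelled WT, 5 were cycling, and all 5 of those also held a PTCH1 UMI, as did 33 of all 63 cycling cells. Labelled FKO, 10 of 21 such cells were cycling and 5 of those 10 held PTCH1, as did 37 of all 103, while 5 were in the collagen-gene class. Cells with a GLI1 UMI were deep, with medians of 16202 and 10544 UMIs.

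GLI2 (ENSG00000074047; chromosome 2, 120735623 to 120992653, plus strand), the main activator that responds to SMO, had 9 UMIs in FEV-positive neurons labelled WT, 0.124 CPM (0.0569 to 0.236), and 24 labelled FKO, 0.475 CPM (0.304 to 0.707). In cycling cells it had 3 UMIs labelled WT, 2.27 CPM (0.468 to 6.63), and 13 labelled FKO, 7.79 CPM (4.15 to 13.3). GLI3 (ENSG00000106571; chromosome 7, 41960950 to 42237870, minus strand), which is processed to a repressor when no ligand is bound, was the most abundant of the family by UMIs in cycling cells, with 18 labelled WT and 47 labelled FKO. Its level there was 13.6 CPM (8.07 to 21.5) and 28.2 CPM (20.7 to 37.5), against 0.235 CPM (0.137 to 0.376) and 0.890 CPM (0.650 to 1.19) in FEV-positive neurons. FEV-negative cells labelled FKO had GLI3 at 15.8 CPM (11.5 to 21.1), while those labelled WT had 2 UMIs, 3.07 CPM (0.372 to 11.1). A group of 94 cells with UMIs for at least 2 of the genes OLFML2A, S100B and ERBB3, found after seeing the data, carried 14 of the 45 GLI3 UMIs of FEV-positive neurons labelled FKO and 32 of the 45 of FEV-negative cells. Low neuronal levels and higher levels in cycling cells were thus shared by the GLI factors, with counts under 20 in cycling cells for all but GLI3 labelled FKO. This was not particular to cycling cells: the collagen-gene class labelled FKO had GLI2 at 16.2 CPM (9.04 to 26.6) and GLI3 at 32.3 CPM (21.8 to 46.1).

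The Hedgehog genes were also counted against the background of all genes. A gene was counted as higher when its CPM was at least 2-fold higher, with over 3 UMIs on the higher side, at least 20 UMIs in both sides together, and 0 UMIs taken as the 3 that a count of 0 allows. In cycling cells over FEV-positive neurons, 5 of the 7 members with enough UMIs were higher labelled WT (GLI3, PTCH1, HHIP, SMO and BOC), against 12% of 17956 genes, and 6 of 8 labelled FKO (GLI2, GLI3, HHIP, SMO, BOC and GAS1), against 12.7% of 19345 genes. In FEV-negative cells over FEV-positive neurons, 2 of 6 were higher labelled WT (BOC and CDON, from 5 and 6 UMIs), against 5.81% of genes, and 4 of 8 labelled FKO (GLI2 from 4 UMIs, GLI3, SMO and BOC), against 10.5%. These counts were 0 and 1 with a mitochondrial limit of 5%, and 4 and 5 with cycling called at 5 of 10 genes. In floor plate-like cells 4 of 7 were higher labelled WT (GLI3, SMO, BOC and CDON), against 12.6%, and 4 of 8 labelled FKO (GLI3 from 5 UMIs, HHIP, SMO and BOC), against 8.85%. GLI3 labelled WT, with 17 UMIs in neurons, reached the minimum of 20 in cycling and floor plate-like cells only through the UMIs of those classes. In the collagen-gene class labelled FKO, 8 of 8 were higher, against 10% of genes. By this rule no member was 2-fold lower in any of these comparisons within a library, and GLI1 had too few UMIs to be counted in them. With the mean of per-cell CPM, HHIP was 2-fold lower in FEV-negative cells labelled FKO, at a log2 ratio of -1.05. The median log2 ratio of cycling cells over neurons was 2.70 for the members labelled WT and 2.82 labelled FKO, against -0.28 and -0.08 for all genes counted.

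The levels were also followed over FEV itself, in cells outside the cycling, floor plate-like and collagen-gene classes that were thinned to 2000 UMIs. Thinned cells with 0, 1, 2 to 3, and 4 or more FEV UMIs numbered 490, 788, 1957 and 2289 labelled WT and 1398, 1628, 2411 and 1079 labelled FKO. PTCH1 showed no steady change with FEV, at 23.5, 14.6, 19.9 and 16.8 CPM of thinned UMIs labelled WT and 38.3, 34.1, 36.3 and 32.4 CPM labelled FKO, and the intervals of each library overlap. CDON labelled FKO was likewise flat, at 8.23, 12.9, 9.54 and 8.80 CPM. BOC and GLI3 labelled FKO were highest without FEV: BOC was at 6.44 CPM (3.82 to 10.2) with 0 FEV UMIs and 1.23 CPM (0.335 to 3.15) with 1, and had 2 UMIs and 0 UMIs in the higher bins. GLI3 was at 5.36 CPM (3 to 8.85), then 1.54 CPM (0.499 to 3.58), with 1 UMI in each higher bin. The counts labelled WT, at most 2 UMIs in a bin for BOC and for GLI3, are too few to show the same or its absence.

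**Figure D3:**
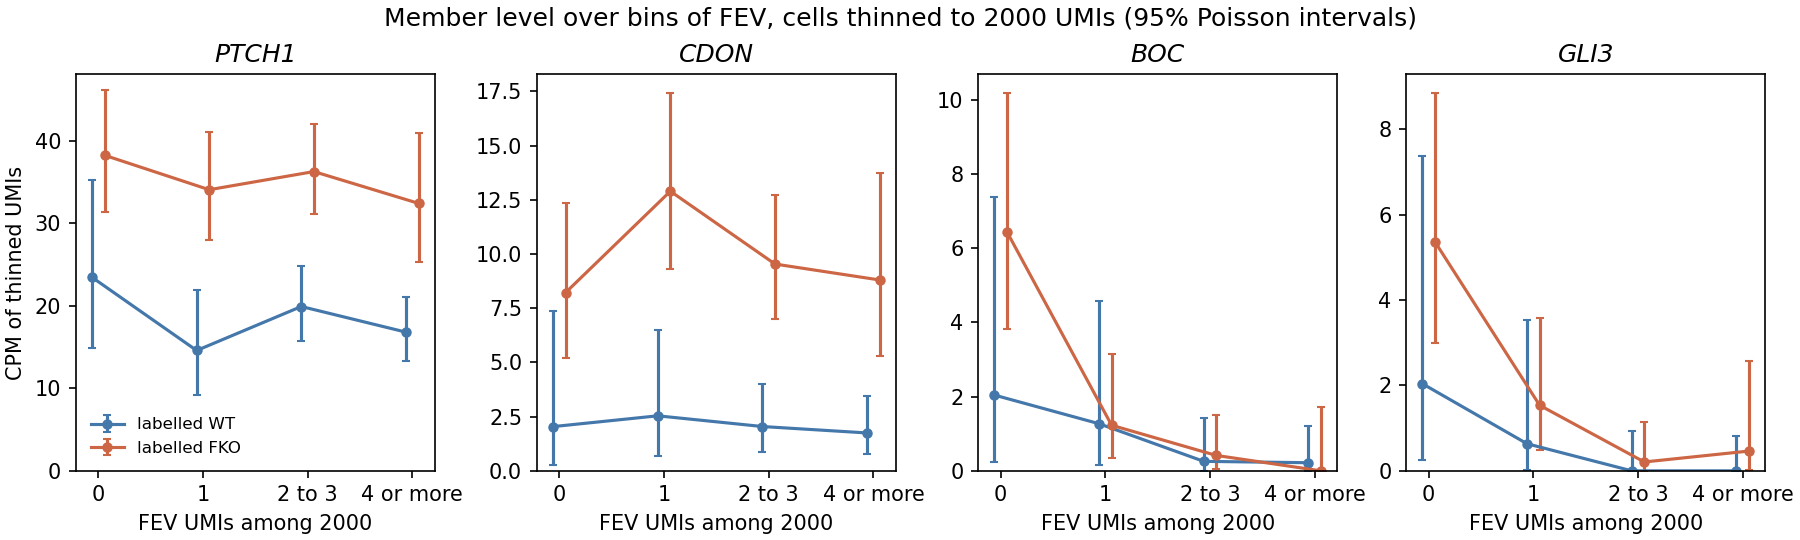
Level of PTCH1, CDON, BOC and GLI3 (CPM of thinned UMIs, vertical axis, a separate scale in each panel) over bins of FEV UMIs among 2000 (horizontal axis), labelled WT (blue) and labelled FKO (orange); whiskers are 95% Poisson intervals. PTCH1 labelled FKO stays between 32.4 and 38.3 CPM, while BOC labelled FKO goes from 6.44 CPM without FEV to 0 UMIs at 4 or more.

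Between the libraries, over all kept cells, all 9 members were at least 2-fold higher in the library labelled FKO, against 35.3% of 22047 genes. Of these, GLI1 and GLI2, with 10 and 13 UMIs labelled WT, reached the minimum of 20 only through the UMIs labelled FKO. PTCH1, at a log2 ratio of 1.01, was barely 2-fold higher. With totals that leave out mitochondrial and ribosomal protein genes 7 were (without PTCH1 and GAS1), and with the mean of per-cell CPM 8 (without SMO). The library labelled WT had more UMIs per cell, and the median gene was itself higher labelled FKO, with a log2 ratio of 0.67. The median of the members was 1.74. Above that of the median gene, the log2 ratios were 0.35 for PTCH1, 0.48 for SMO, 0.45 for GAS1, 0.92 for HHIP, 1.07 for CDON, 1.10 for GLI1, 1.43 for BOC, 1.69 for GLI3 and 1.83 for GLI2. When the ratios were scaled so that the median gene is at 0, 5 of the 9, GLI1 and GLI2 among them, stayed at least 2-fold higher, against 15.6% of genes.

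Within FEV-positive neurons, a gate that can still hold other cells in unequal shares, 5 of 8 members were 2-fold higher labelled FKO (GLI2, GLI3, HHIP, BOC and CDON), against 33.8% of 21241 genes. Their log2 ratios were 1.93 (0.78 to 3.22) for GLI2, 1.92 (1.09 to 2.82) for GLI3, 1.97 (1.36 to 2.62) for HHIP, 1.34 (0.67 to 2.04) for BOC and 1.74 for CDON. Each of these starts from at most 31 UMIs labelled WT, apart from CDON with 209. GLI2 and GLI3, with 9 and 17 UMIs labelled WT, reached the minimum of 20 only through the UMIs labelled FKO. Scaled to the median gene, 4 of the 5, GLI2 and GLI3 among them, stayed 2-fold higher and BOC, at 0.70, did not. After thinning, GLI2, GLI3, BOC and HHIP had a UMI in 0.0658%, 0.148%, 0.230% and 0.313% of these neurons labelled FKO, and GAS1 and SMO in 0.197% and 0.444%. All lie between the 0.0494% of SHH and the 0.757% of COL1A1, genes that neurons should lack and that the gates can lower. How many of these UMIs are free RNA was not tested. With a mitochondrial limit of 20% GLI2 was at 2.10, GLI3 at 2.45, HHIP at 2.08 and BOC at 1.29. With a limit of 5%, which left 336 cells labelled WT, GLI3 turned to -0.66 and BOC to -0.93 in FEV-positive neurons, with 3 and 6 UMIs labelled WT and intervals that include 0, and SMO went to -0.04. GLI2 went to 0.47 (-2.31 to 5.90) and HHIP to 2.30 (-0.26 to 7.64), each from 1 UMI labelled WT. PTCH1 was at a log2 ratio of 0.75 (0.38 to 1.15) and CDON at 3.91 (2.05 to 6.97) from 2 UMIs labelled WT. Over all kept cells the same limit turned GLI1 to -1.32, HHIP to -0.51, SMO to -0.39 and BOC to -0.36. There PTCH1 went to 0.55 (0.23 to 0.88), the level of the median gene at that limit (0.55), and was no longer 2-fold higher. GLI2 went to 0.49 (-1.54 to 3.63) and GLI3 to 0.13 (-1.10 to 1.64), both under that median. CDON was at 2.85 (1.61 to 4.49) from 5 UMIs labelled WT, and GAS1 at 1.68 (-0.93 to 7.05) from 1.

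**Figure D4:**
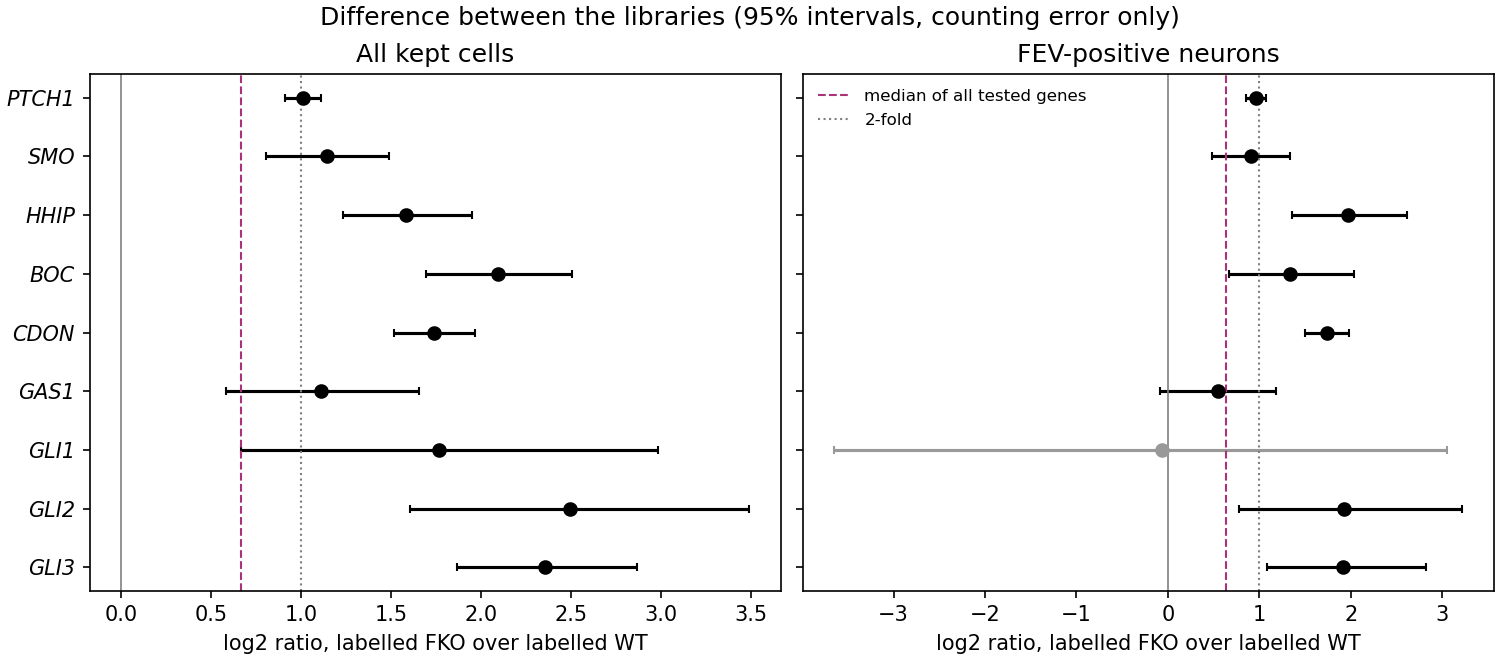
Log2 ratio of each gene, labelled FKO over labelled WT (horizontal axis), over all kept cells (left) and in FEV-positive neurons (right); whiskers are 95% intervals for counting error, the dashed line is the median of all genes counted (0.67 and 0.64) and the dotted line marks 2-fold. Grey marks GLI1 in neurons, with 3 and 2 UMIs. CDON stands at 1.74 in both panels, and PTCH1 goes from 1.01 to 0.96.

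Within the smaller classes the ratios between the libraries varied by class. In FEV-negative cells, where the median gene was at 0.46, 4 members had enough UMIs. There GLI3 was at 2.36 (0.43 to 5.45) from 2 UMIs labelled WT, PTCH1 at 0.79 (-0.02 to 1.71), CDON at 0.50 and BOC at 0.46. In cycling cells, where the median gene was at 0.56, HHIP was lower labelled FKO, with a log2 ratio of -2.44 (-3.39 to -1.58), and PTCH1 was at -0.49 (-0.98 to -0.01). In the same cells GLI3 was at 1.05 (0.24 to 1.92) and SMO at 1.10 (0.01 to 2.31). In floor plate-like cells, with the median gene at 0.52, PTCH1 was at 1.40 (0.63 to 2.24) and HHIP at 4.03 (2.09 to 7.12), while SMO at 0.18, BOC at -0.17 and CDON at 0.36 lay under that median. The median of the 5 members counted there was 0.36. The cycling and floor plate-like classes are small, and their other genes differ between libraries as given above for COL1A1, STMN2 and LUM.

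Other genes of the pathway were taken from 5 lists of 30 genes in all, each with UMIs in both libraries. Over all kept cells 29 had enough UMIs, of which 12 were 2-fold higher labelled FKO and 1 lower, against 35.3% and 3.15% of all genes, with a median log2 ratio of 0.93 against 0.67 for all genes. In FEV-positive neurons it was 11 higher and 0 lower of 29, against 33.8% and 3.62% of all genes. The 6 genes for ligands and their release, led by DISP1, summed to 17.0 CPM labelled WT and 21.7 CPM labelled FKO. Of these, 4 were 2-fold higher labelled FKO (IHH, DHH, HHAT and SCUBE2), against 35.3% of all genes. SHH, the ligand of the floor plate, was lower, at 6.14 CPM labelled WT and 3.07 CPM labelled FKO, a log2 ratio of -1 (-1.26 to -0.75). Of its 466 and 178 UMIs, 80.9% and 73.0% lay in floor plate-like cells, a class defined in part by SHH. IHH had 7 and 17 UMIs and DHH 6 and 23, so both reached the minimum of 20 only through the UMIs labelled FKO. Both count among the 12 higher genes, as does EVC, a gene of the membrane and cilium with 19 and 65 UMIs. IHH, DHH and EVC are also among the 11 higher in FEV-positive neurons, with 7, 6 and 13 UMIs labelled WT.

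The 7 genes of the membrane and cilium summed to 90.6 CPM labelled WT and 146 CPM labelled FKO. Of the 6 with enough UMIs, 2 were 2-fold higher labelled FKO (GPR161 and EVC), against 35.3% of all genes. EVC had 19 UMIs labelled WT and 65 labelled FKO, so it reached the minimum of 20 only through the UMIs labelled FKO. GPR161, a ciliary receptor that restrains the pathway, was the most abundant, at 38.8 CPM labelled WT and 84.0 CPM labelled FKO, and LRP2, an endocytic receptor for SHH, was at 7.97 and 7.84 CPM. The 8 intracellular genes summed to 414 CPM labelled WT, led by the kinase gene CSNK1A1, and 627 CPM labelled FKO, led by the kinase gene GSK3B, and 2 were 2-fold higher, against 35.3% of all genes: SUFU, which binds and restrains GLI proteins, at 3.06 and 6.48 CPM, and STK36 at 2.60 and 5.63 CPM.

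The genes of ventral identity that SHH induces in progenitors did not move together in the neurons. In FEV-positive neurons NKX2-2 was at 9.18 CPM labelled WT and 6.69 CPM labelled FKO, NKX6-1 at 8.81 and 6.19 CPM, and NKX6-2 at 8.52 and 4.33 CPM, with log2 ratios of -0.46, -0.51 and -0.97. None of the 3 passes 2-fold, but relative to the median gene they lie at -1.10, -1.15 and -1.61. The other 3 ventral genes were higher labelled FKO in the same neurons: FOXA1 at 0.470 and 3.64 CPM, FOXA2 at 2.32 and 8.19 CPM, and OLIG2 at 0.705 and 1.29 CPM, with log2 ratios of 2.95, 1.82 and 0.87, or 2.31, 1.18 and 0.23 relative to the median gene. Thus 2 of the 6, FOXA1 and FOXA2, were 2-fold higher there, against 33.8% of all genes, and the median of the 6 was 0.21. Both are also floor plate genes of the gate that takes cells out of these neurons. That gate was applied at each cell's own depth, which was greater labelled WT. How far it shapes the neuronal levels of FOXA1 and FOXA2 was not tested. The 6 ventral genes summed to 35.0 CPM labelled WT over all kept cells, led by NKX2-2, and 57.9 CPM labelled FKO, led by FOXA2, and 3 of them were 2-fold higher labelled FKO, against 35.3% of all genes: FOXA1, FOXA2 and OLIG2. The 3 general targets summed to 77.8 CPM labelled WT, led by CCND1, and 130.0 CPM labelled FKO, led by BCL2, which was 2-fold higher there, at 31.3 and 77.4 CPM.

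CCND1, which encodes the cyclin D1 that drives entry into S phase and is a target of the pathway in many tissues, was higher in cycling and FEV-negative cells than in neurons. It was at 25.8 CPM in FEV-positive neurons labelled WT and 13.9 CPM labelled FKO, against 222 and 330 CPM in cycling cells and 293 and 203 CPM in FEV-negative cells. Floor plate-like cells had 42.1 CPM labelled WT, under 2-fold above the neurons, and 67.2 CPM labelled FKO. In cycling cells over neurons, 8 of 26 pathway genes were 2-fold higher and 2 lower labelled WT, against 12% and 15.5% of all genes. Labelled FKO, 9 of 28 were higher and 1 lower, against 12.7% and 8.04%. SHH, FOXA1 and FOXA2 were among the higher genes in each library. They are floor plate genes of the gate that takes cells out of the neurons, and cycling cells were called before that gate. How far the gate shapes these counts was not tested. LRP2 was also among the higher genes in both libraries, at 63.5 and 30.6 CPM in cycling cells.

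The patterns of the members over the 8 library-by-class profiles (4 classes in each library, the points of a library sharing its depth) were compared with those of 14149 genes, as a description. NUP188, ZNF730 and HILPDA were most like PTCH1, with Pearson r of 0.98, 0.96 and 0.96 of log2(CPM + 1). GOLIM4, SLC4A2 and ALDH9A1 were most like SMO (0.99, 0.98 and 0.98), and PLEKHA2, GALNT17 and FGFBP3 most like HHIP (0.95, 0.94 and 0.93). EXTL2, TGIF1 and PRAG1 were most like BOC (0.997, 0.99 and 0.97), and FHIP2B, SH3RF1 and FAM184B most like CDON (0.96 each). None of the genes listed here was a member, and members with under 200 UMIs could not be listed. Between members, r ran from -0.25 for HHIP with CDON to 0.89 for GLI2 with GAS1. It was 0.72 for PTCH1 with HHIP, 0.64 for PTCH1 with GLI1, and -0.04 for PTCH1 with CDON.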

How the data were processed

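UMI counts per gene and barcode were made by the authors with Cell Ranger (version 7.1.0 in the matrix header, 7.0 in the processing notes) on GRCh38. The deposited counts were used as they are, and no column of the count files was left out. Cell Ranger from version 7 counts intronic reads by default, and the setting used is not given in the sources used. A barcode was kept if it had 1000 UMIs or more, 500 genes or more and no more than 10% of its UMIs from mitochondrial genes, and the barcodes with the highest Scrublet scores (scanpy 1.11.5, run per library) were removed as doublets, 0.8% of barcodes for each 1000 barcodes: 977 labelled WT and 620 labelled FKO, before the other limits were applied. Pooled CPM is a gene's UMIs over all UMIs of the cells. Poisson, Clopper-Pearson and conditional ratio intervals, all 95%, came from scipy 1.17.1, with numpy 2.4.6 and pandas 2.3.3 in Python 3.11.15, and figures from matplotlib 3.10.9. A count of 0 allows up to 3 counts. No test was run, since there is 1 library per condition.

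Named genes are all members, the genes of the marker and pathway lists, and, for each member with at least 50 UMIs in each library, the 3 genes of highest r among those with at least 200 UMIs. The members and lists were chosen with earlier results of these data known. Other limits on mitochondrial share, UMIs, doublets, FEV and cycling genes, other scalings, thinning depths, folds and UMI minimums were tried, and 1 band of mitochondrial share was added after seeing the data. The counting and interval code was tested on simulated data.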

Additional observations from a re-analysis of the deposited data

Results flagged for a closer look

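PTCH1 and HHIP differed between the libraries in opposite directions in different classes of cells. For PTCH1 the log2 ratio (labelled FKO over labelled WT) was 0.96 in FEV-positive neurons and 1.40 in floor plate-like cells but -0.49 in cycling cells. For HHIP it was 1.97 in FEV-positive neurons and 4.03 in floor plate-like cells but -2.44 in cycling cells. With 1 library per condition the difference between classes was not tested. In floor plate-like cells the ratios of PTCH1 and HHIP start from 18 and 2 UMIs labelled WT. In cycling cells labelled WT, 60 UMIs in 13 cells stand behind the level of HHIP.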

How the results depend on the processing

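Of 559 log2 ratios recomputed under the alternatives, 500 stayed within the interval of the reported value, 53 moved outside it, and 6 that had been at least 2-fold changed sign, of 18 sign changes in all. Of 74 counts of 2-fold higher members 64 stayed within 1.5 times the reported count, as did 68 of 74 shares of all genes, and 536 of 648 shares of cells with a UMI stayed within their interval. A mitochondrial limit of 5% left 336 cells labelled WT and 2913 labelled FKO. Over all kept cells, it turned the FKO over WT log2 ratio of GLI1 to -1.32, HHIP to -0.51, SMO to -0.39 and BOC to -0.36. In FEV-positive neurons it turned GLI3 to -0.66 and BOC to -0.93, and SMO, not 2-fold before, to -0.04. PTCH1 went from 1.01 to 0.55, GLI2 from 2.49 to 0.49 and GLI3 from 2.35 to 0.13 over all kept cells. Those of GLI1, HHIP, SMO and BOC over all kept cells and of GLI3 and BOC in neurons have intervals that include 0 and 2, 16, 14, 12, 3 and 6 UMIs labelled WT. The 2-fold higher members became 2 over all kept cells (from 9), 2 in FEV-positive neurons (from 5), 0 in FEV-negative (from 2) and 1 in cycling cells labelled WT (from 5), and 1 in FEV-negative cells labelled FKO (from 4), with fewer cells on each side. In cycling cells labelled WT, HHIP at 7.65, GLI3 at 3.16, SMO at 2.94 and BOC at 2.16 kept their direction but fell under 20 summed UMIs. In FEV-negative cells labelled WT, CDON was at 5.04, from 3 UMIs there and 2 in the neurons, and BOC had 0 UMIs there. The share of all genes became 5.88% in FEV-negative and 8.39% in cycling cells labelled FKO. Scaling the median gene to 0 gave 5 of 9 members and 15.6% of genes over all kept cells, and 4 members, without BOC, and 14.8% of genes in FEV-positive neurons, since it takes 0.67 and 0.64 from each ratio. GAS1 in FEV-positive neurons then went to -0.09. In FEV-negative cells labelled FKO, 2 members were higher with cycling called at 2 of 10 genes and 2 with the mean of per-cell CPM. With that mean HHIP was 2-fold lower there, at a log2 ratio of -1.05 (from 0.32). The share of genes in these cells was 6.07% with FEV called after thinning and 6.08% with at least 100 summed UMIs. In FEV-negative cells labelled WT, 4 were higher with cycling called at 5 of 10 genes. A mitochondrial share of 5% to 10%, chosen after seeing the data, gave 1 there, 8 over all kept cells and 5 in FEV-positive neurons, where PTCH1 was at 0.89. The cause was not tested for any of these. Depth limits GLI1 and GLI2 most, with under 20 UMIs each labelled WT.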

Other observations

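GLI3 in the library labelled FKO had many of its UMIs in a group of cells that the classes above do not separate, found after seeing the data by UMIs for at least 2 of the genes OLFML2A, S100B and ERBB3 outside the cycling, floor plate-like and collagen-gene classes. It held 94 cells labelled FKO, 37 with and 57 without a FEV UMI, and 1 cell labelled WT. These 94 cells, with a median of 7823.5 UMIs, had 46 GLI3 UMIs in 33 cells, or 51.2 CPM (37.5 to 68.3), which is 26.7% of the GLI3 UMIs labelled FKO. They carried 14 of the 45 GLI3 UMIs of FEV-positive neurons and 32 of the 45 of FEV-negative cells. PTCH1 was at 27.8 CPM (18.0 to 41.1) and HHIP had 0 UMIs, which allows up to 3 counts. BOC was at 14.5 CPM, SMO at 13.3 CPM, and GLI2 and GAS1 at 7.79 CPM each, so GLI3 was not the only member above its level in FEV-positive neurons labelled FKO. They had SOX10, a transcription factor gene of neural crest derivatives, at 228 CPM, and STMN2 at 922 CPM and FEV at 170 CPM. The part of these cells in the GLI3 ratio between the libraries was not tested.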
